A study of Arabidopsis thaliana with 9 samples.

Results

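GRF3-only genic regions are stretches of the Arabidopsis thaliana genome, in or close to protein-coding genes, where a peak of chromatin immunoprecipitation was called in all 3 libraries of GRF3-GFP plants and where no reproducible GRF1-GFP region lay. They were chosen from the deposited peak lists in 4 steps. Peaks of the 3 lists of 1 factor that overlapped by at least 1 bp were merged, and a merged region with peaks from at least 2 of 3 libraries was called a consensus region. GRF3 regions with peaks in all 3 libraries were kept if they overlapped no GRF1 consensus region. The summit, taken as the median of the libraries' summits, had to lie inside a protein-coding gene span or within 1 kb of one, and outside any pseudogene span. Of 2203 GRF3 consensus regions, 960 had peaks in all 3 libraries and 702 of those overlapped none of the 1147 GRF1 consensus regions. From the 702, 193 were left out because the summit lay in a pseudogene span and 54 because it lay more than 1 kb from any protein-coding span. This left 455 regions, 20.7% of the GRF3 consensus regions.

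The study compared where 2 growth-regulating factors sit on chromatin. Its samples were whole plants of strain Ws, 2 weeks old and grown on MS medium, with 3 samples in each of 3 groups. The groups carried the transgene 35S:GRF3-GFP, 35S:GRF1-GFP or, with GFP alone, 35S:GFP. The 35S promoter of these transgenes is strong and active in most plant tissues. The tagged protein thus need not have been limited to the cells that normally make it, and the peak lists do not show where it was made. The immunoprecipitation with an anti-GFP antibody (5 mg/ml stock) recovered the tagged protein. How many independent lines stood behind a group was not given in the sources used here, and the 35S:GFP samples were not analysed here.

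Growth-regulating factors are plant transcription factors defined by a WRC domain, which contacts DNA, and a QLQ domain, which binds coactivators of the GIF family. Many of them, GRF1 and GRF3 included, are held down by the microRNA miR396, and they are known for promoting cell proliferation in young leaves and other growing organs. Immunoprecipitated DNA from a whole plant averages over its cells, so occupancy in fewer cells and weaker occupancy in each cell cannot be told apart.

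The lists of the 3 GRF3 libraries held 2258, 2301 and 5944 peaks, in replicate order, and those of the 3 GRF1 libraries 1410, 1122 and 1878. The third GRF3 list was the longest, and its peaks had a median fold of 2.57 against 2.41 and 2.44 in the others. Fold is the enrichment over the control that the peak caller computed, a ratio. It is the authors' own value for each peak and is used here to describe and rank peaks within a list. The 455 regions took up 20.4%, 20.1% and 7.72% of the peaks of the 3 lists.

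Most GRF3-only genic regions, though not all, were among the more enriched places in each GRF3 library. Their median fold was 7.10 in replicate 1, 7.40 in replicate 2 and 8.54 in replicate 3 (mean of the medians 7.68 ± 0.76 SD, n = 3). They supplied 337 of the 508 peaks with a fold of at least 5 in replicate 1 (66.3%), 344 of 451 in replicate 2 (76.3%) and 351 of 594 in replicate 3 (59.1%). A region qualified by having a peak in each list, so these values describe the choice and were not tested. Replicate 3 gave the highest fold of the 3 libraries at 391 of the 455 regions. The folds come from lists that were called separately, and no change between libraries was read from this. The median −log10 q-value of the peaks was 36.4, 40.4 and 46.4. The merged regions had a median width of 443 bp, with quartiles at 422.5 and 694.5 bp and extremes of 231 and 2773 bp.

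The regions were spread over all 5 chromosomes, with 107 on chromosome 1, 85 on chromosome 2, 95 on chromosome 3, 66 on chromosome 4 and 102 on chromosome 5. Their fold had 2 separate ranges. A mean fold of at least 5 over the 3 libraries was found at 345 regions (75.8%), and 110 regions (24.2%) were lower. Only 18 regions had a mean fold between 4 and 6. The dividing value of 5 was chosen after the values were seen. The upper 345 regions had median folds of 7.75, 8.15 and 9.59 (8.5 ± 0.97 SD, n = 3), and the lower 110 had 2.34, 2.29 and 2.52 (2.38 ± 0.12 SD, n = 3). The lower range was thus at about the median of the whole lists. The folds of the upper range were unevenly spaced: 64.3%, 65.5% and 62.6% of them were whole multiples of 1 step per library, 0.102, 0.0973 and 0.109, within 0.02 of a step, against 1.82%, 8.18% and 2.73% in the lower range. Each step was fitted to the same upper-range folds. The control, the mapping and the library preparation were not tested for their part in these folds, and without the lists of the plants with GFP alone the folds do not show by themselves that GRF3 was bound.

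**Figure D1:**
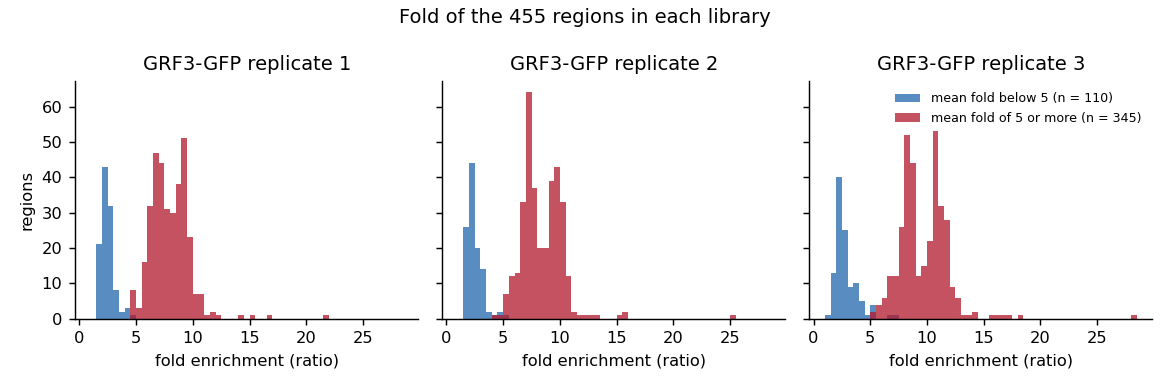
Number of GRF3-only genic regions (y axis) by fold enrichment (x axis, ratio) in each of the 3 GRF3-GFP libraries. Blue bars count the 110 regions with a mean fold below 5 and red bars the 345 regions at or above it; each panel shows a low mode between about 2 and 3 and a broad high range that is itself split.

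The 2 ranges differed in where their summits lay, which is given as a description and was not tested. In the upper range 69 of 345 summits lay inside a gene span, 121 lay to the left of the nearest span and 155 to the right, where left means toward lower coordinates. In the lower range 93 of 110 summits (84.5%) lay inside a span, 11 to the left and 6 to the right. Over all members the inside share was 35.6% of regions, and taken from each library's own summit it was 35.7% ± 0.13 (SD, n = 3). That SD is over the same regions in each library. When regions were chosen anew without GRF3 replicate 1 the share was 53.4%, and without replicate 2 it was 57.4%. The strand of the genes was not used here, so left and right are not upstream and downstream. Upper-range summits also fell at nearly the same base in each library, with a median spread over the 3 libraries of 9 bp against 92 bp in the lower range. The spread was within 10 bp at 204 of 345 upper-range regions and at 9 of 110 lower-range regions.

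Outside genes, the upper-range summits stopped abruptly. Of the 276 upper-range summits outside a gene span, 273 lay within 320 bp of it, 1 between 320 and 640 bp, and 2 farther away. They were also crowded at the outer end of that range. A summit 280 to 310 bp outside the nearest gene was found at 96 upper-range regions and at 1 lower-range region, together 97 of 455 (21.3%), 40 of them on the left and 57 on the right. The most common distance in the upper range was 298 bp on the left, with 8 regions, and 300 bp on the right, with 13. The share in this band, taken from each library's own summit, was 20% in replicate 1, 21.1% in replicate 2 and 20.7% in replicate 3 (20.6% ± 0.55 SD, n = 3), again over the same regions. With regions chosen anew it was 14.2% without GRF3 replicate 1 and 13.5% without replicate 2. The band was already known from an earlier analysis of these lists, so its presence here is not independent support for it.

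**Figure D2:**
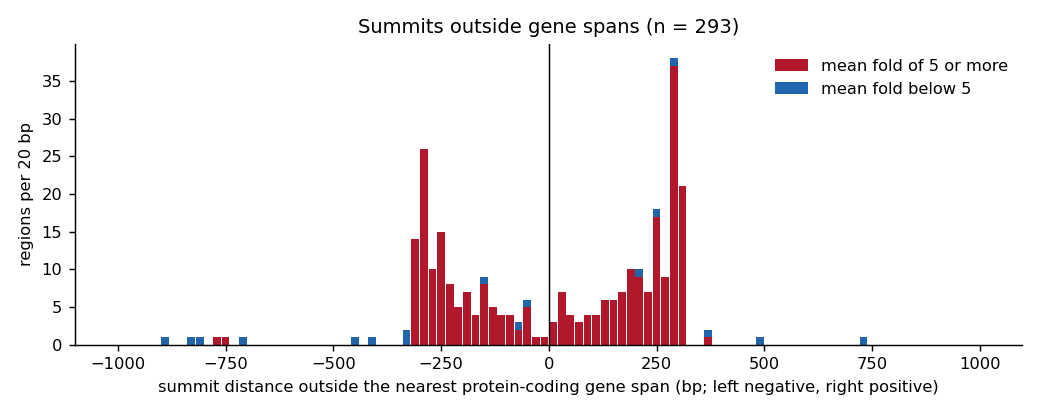
Number of summits per 20 bp (y axis) by distance outside the nearest protein-coding gene span in bp (x axis, negative to the left of the gene, positive to the right), for the 293 regions with a summit outside a span. The red upper-range counts climb toward 300 bp on either side and nearly cease beyond 320 bp.

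Regions left and right of genes had different folds, in all 3 libraries. Upper-range regions to the left of a gene had median folds of 6.94, 7.30 and 8.43 (7.55 ± 0.78 SD, n = 3). Those to the right had 8.87, 9.44 and 10.8 (9.72 ± 1.01 SD, n = 3). Those inside genes lay between them, at 7.69, 8.23 and 9.67. These are values at called peaks, which also chose the regions, and the difference was not tested.

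Fold also went with the shape of a region. Among the 223 upper-range regions narrower than 480 bp, a width chosen after the values were seen, 111 had the summit nearer the left edge and 112 nearer the right edge. In the first kind the median distance from left edge to summit was 170 bp and from summit to right edge 245 bp, and in the second kind the parts were 257 and 178.5 bp, close to a mirror image. Regions with the summit nearer the left edge had median folds of 6.73, 7.20 and 8.32 (7.42 ± 0.81 SD, n = 3), and 110 of 111 had a mean fold of at most 8.5. Regions with the summit nearer the right edge had median folds of 9.02, 9.55 and 10.9 (9.84 ± 0.99 SD, n = 3), and 108 of 112 had a mean fold above 8.5, a value also chosen after the folds were seen. The 1 exception of the first kind was a region inside GRF3 itself, with a mean fold of 12.6.

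In these narrow regions the shape and the side of the gene were linked but not the same. Of the 111 regions with the summit nearer the left edge, 74 lay left of a gene, 19 right and 18 inside. Of the 112 with the summit nearer the right edge, 10 lay left, 74 right and 28 inside. The 19 regions right of a gene with a left-leaning summit had median folds of 6.83, 7.20 and 7.87, and the 10 regions left of a gene with a right-leaning summit had 9.04, 9.20 and 10.6. In both of these groups the fold was that of the shape and not that of the side. By side alone, 10 of the 84 narrow regions left of a gene and 72 of the 93 right of one were above 8.5. Among the 122 wider upper-range regions the order by shape was the same but the ranges overlapped. The median of the mean folds was 7.69 for the 61 with the summit nearer the left edge, 23 of which were above 8.5, and 9.69 for the 61 with it nearer the right edge, 41 of which were above 8.5. By side, 8 of 37 wider regions left of a gene and 46 of 62 right of one were above 8.5. These counts leave out the 23 wider regions inside genes, which the counts by shape include, so the 2 splits cannot be ranked. The edge far from the summit was also less fixed in wider regions. The median spread between libraries was 253 bp at the right edge of left-leaning ones and 280 bp at the left edge of right-leaning ones. In narrow regions these spreads were 27 and 17 bp. At the edge near the summit the spreads were 18 and 21 bp in wider regions, against 16 and 12 bp in narrow ones. Width was that of the merged peaks, so a far edge that differs between libraries by itself makes a region wider.

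**Figure D3:**
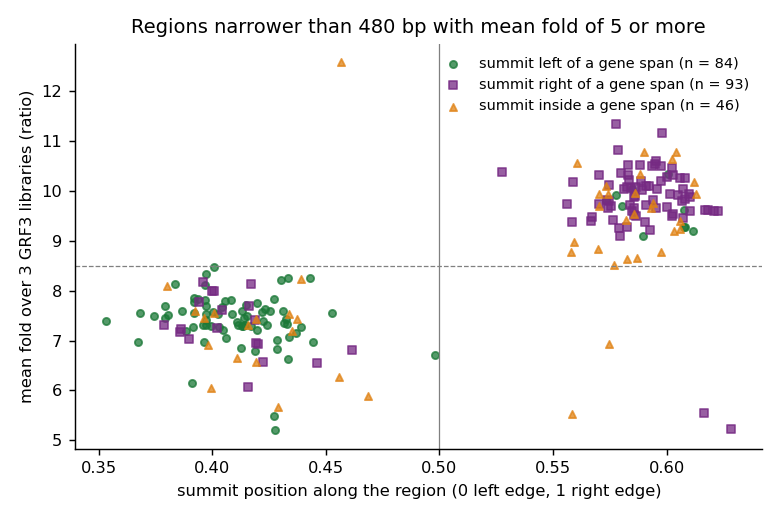
Mean fold over the 3 GRF3-GFP libraries (y axis, ratio) by the position of the summit along the region (x axis, 0 at the left edge and 1 at the right edge) for the 223 upper-range regions narrower than 480 bp. Each point is 1 region, marked by where the summit lay against the nearest gene. The points form a lower group on the left and a higher group on the right of 0.5, separated near a fold of 8.5 (dashed line).

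The most enriched regions, like the members as a whole, lay mostly at genes known here by a locus name alone. Of the 449 genes nearest to any member, 151 had a symbol. The nearest protein-coding gene was named for the 12 regions with the highest mean fold rank. First among them was a region on chromosome 5, 19882988 to 19883878 (TAIR10), with the summit 279 bp right of OVA2, which encodes an organellar isoleucyl-tRNA synthetase. Its folds of 21.9, 25.4 and 28.2 (25.2 ± 3.16 SD, n = 3) were the highest of any member in each library. The next 3 regions had mean folds of 16.3 ± 1.70 at AT5G56480, 16.1 ± 0.43 at AT4G24310 and 15.7 ± 1.41 at AT5G16285, each n = 3. They were followed by AT3G18360 with 14.0, AT3G17550 with 12.9, GRF3 with 12.6, AT2G16030 with 12.2, AT3G14520 with 11.6, AT2G18320 with 11.8, AT5G34829 with 11.3 and CYP76C1, a cytochrome P450 gene, with 11.2. Of these 12 summits, 9 lay right of the gene, 2 left of it and 1 inside it.

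GRF3 itself held 2 of the regions, and both lay inside its span on chromosome 2. The first, from 15270300 to 15270737, had folds of 10.6, 10.9 and 16.2 (12.6 ± 3.13 SD, n = 3). The second, from 15271545 to 15272636, had folds of 9.44, 10.2 and 14.2 (11.3 ± 2.55 SD, n = 3). Replicate 3 stood well above the other libraries at both. The peaks of the 3 libraries had the same start and the same end at the first region and the same start at the second. These were the only 2 of 345 upper-range regions with an edge shared by all 3 libraries, which 9 of 110 lower-range regions also had. The plants carried a GRF3 transgene, and DNA of the transgene and of the native gene cannot be told apart in a peak list. No other gene of the GRF, GIF and miR396 list, 20 genes in all, was nearest to a member. That list was matched on symbols, and the symbol GRF is shared with genes of the 14-3-3 family, the general regulatory factors, which are among the 20.

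The widest regions differed in fold by several times. The widest, 2773 bp at AT3G30230 on chromosome 3, had folds of 10.6, 11.2 and 11.8, and the next, 2015 bp at AT3G43148, had 5.80, 6.62 and 7.01. The other 4 of the widest 6, at AT2G15420, AT1G51172, AT4G01985 and AT1G15830, lay inside gene spans with mean folds between 1.92 and 2.92. The lowest ranks also belonged to regions inside genes. AGO3, an Argonaute gene, had folds of 1.53, 1.52 and 1.37 (1.47 ± 0.09 SD, n = 3). The other 5, at AT3G22125, at GATA5 (a GATA zinc-finger factor), at HYR1, at AT1G04660 and at AT2G38510, had mean folds from 1.80 to 1.92.

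The 1 kb limit cut through a sparse stretch. The members closest to it were at CYP78A7, with the summit 882 bp to the left, BBX18 (824 bp left), AT4G20953 (803 bp left), AT1G11593 (772 bp left), LBD4 (743 bp left) and AT3G55590 (729 bp right). AT1G11593 and the lateral organ boundaries gene LBD4 had mean folds of 9.70 and 10.3, while the other 4 were between 1.93 and 2.91. Just outside the limit were regions 1059 bp from AT5G40315 with folds of 8.26, 9.93 and 10.1, 1080 bp from AT1G54890 with 9.18, 8.66 and 11.1, and 1220 bp from CYP78A8 with 4.28, 3.99 and 2.83.

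The 455 regions had 449 different nearest genes, 1.64% of the 27444 protein-coding genes, and the upper-range regions had 337, which is 1.23%. A gene symbol other than the locus name was given for 151 of the 449. These shares are the background for the gene lists below, which were chosen with earlier results of these data known. Over all 14 lists, 22 genes were nearest to a member, through 26 regions, of which 20 were in the upper range.

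Of 24 circadian clock genes, 3 (12.5%) had a member. LHY, a MYB factor of the morning loop, had folds of 9.08, 8.86 and 11.9. LKP2, an F-box protein of the ZEITLUPE family, had 2 regions, with folds of 9.26, 8.86 and 10.4 at one and 5.90, 6.05 and 7.53 at the other. TOC1, the evening pseudo-response regulator that represses LHY, had folds of 2.23, 2.29 and 2.14. The LHY and LKP2 regions thus belonged to the upper range in every library and the TOC1 region to the lower one.

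Of 49 genes for salt and ion homeostasis, 4 (8.16%) had a member. SOS3, a calcium sensor of the salt overly sensitive pathway, had a summit 209 bp right of the gene and folds of 9.69, 9.73 and 10.8. Among the cation/proton exchangers, CHX24 had folds of 7.63, 7.33 and 9.67, and CHX27, with the summit 194 bp to the left, had 6.69, 6.94 and 8.0. CHX20, which acts in guard cells, had 2 regions in the lower range, with folds of 1.75, 2.24 and 2.24 and of 2.02, 1.95 and 2.22.

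Heat shock and chaperone genes contributed 3 of 55 (5.45%), and all 4 of their regions were in the upper range. Hsp70b had 2 regions inside its span, with folds of 8.35, 8.39 and 9.59 and of 7.53, 6.66 and 8.02. The mitochondrial mtHsc70-1 had folds of 9.06, 8.56 and 11.0. ERD2, a further HSP70 gene first described as responsive to dehydration, had a summit 287 bp to the right and folds of 6.73, 7.59 and 7.44. In the list for dehydration, cold and abscisic acid, 3 of 76 genes (3.95%) had a member. Beside ERD2 these were PYL13, of the abscisic acid receptor family, with a summit 301 bp to the left and folds of 6.32, 7.49 and 8.32, and NCED2, of the family of abscisic acid synthesis enzymes, with 2.84, 2.26 and 2.37.

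The 3 lists of growth hormone genes had 1 gene each with a member, and all 3 summits lay about 300 bp left of the gene. This position was not particular to hormone genes. Of the 121 upper-range summits left of a gene, 40 lay 280 to 310 bp outside it. IPT4, which makes cytokinin, had a summit at 300 bp and folds of 6.73, 6.91 and 8.32, and was 1 of 75 cytokinin genes (1.33%). YUC11, a flavin monooxygenase of auxin synthesis, had a summit at 304 bp and folds of 6.73, 7.98 and 8.21, and was 1 of 98 auxin genes (1.02%). GA3OX3, which makes bioactive gibberellin, had a summit at 293 bp and folds of 6.53, 6.91 and 7.88, and was 1 of 29 genes of gibberellin and brassinosteroid (3.45%). All 3 stood near the median fold of upper-range regions left of genes. The cytokinin and auxin shares were below the 1.64% found over all protein-coding genes, and the share for gibberellin and brassinosteroid was above it. With 1 gene per list, no enrichment was read from these shares.

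In the cell cycle list 2 of 83 genes (2.41%) had a member. CDC20.2, an activator of the anaphase-promoting complex, had a summit 207 bp to the right and folds of 9.69, 10.5 and 11.6. CDKC2, a cyclin-dependent kinase of the transcription machinery, had folds of 1.98, 2.06 and 2.41. In the light signalling list 2 of 39 genes (5.13%) had one. FRS6, related to the factor FAR1 of phytochrome A signalling, had 6.63, 7.49 and 8.54, and PIL1, a basic helix-loop-helix factor of the shade response, had 2.62, 2.29 and 1.62. LHCB2.1, an antenna protein of photosystem II, was 1 of 39 light-harvesting and photosystem genes (2.56%), with a summit 246 bp to the right and folds of 9.38, 9.64 and 11.9. OVA2 was 1 of 6 genes of the ovule abortion (OVA) series (16.7%). It is the gene at the highest-ranked member, and the lists were chosen with earlier results known, so no enrichment was read from this share. None of 45 meristem and leaf genes and none of 40 flowering genes was nearest to a member. At the 1.64% found over all protein-coding genes, lists of this size can hold none, so no absence was read from this. The lists were also not complete: ESR1 and MNP, named below, are in neither.

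**Figure D4:**
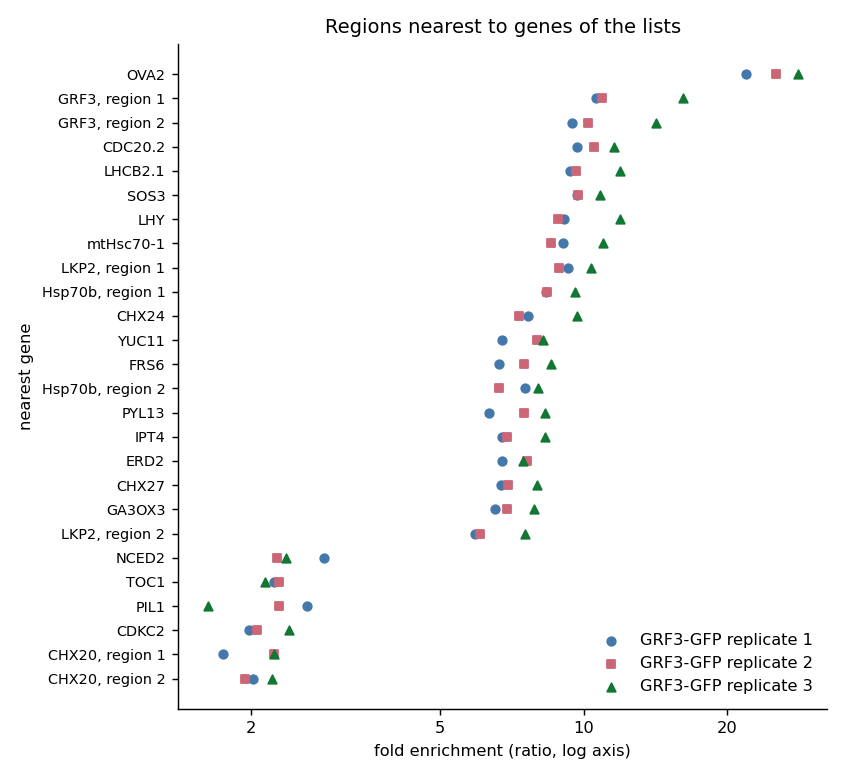
Fold enrichment (x axis, ratio, log axis) in each of the 3 GRF3-GFP libraries for the 26 regions nearest to a gene of the lists (y axis, ordered by mean fold). Each marker is 1 library; 20 regions are in the upper range and 6, at NCED2, TOC1, PIL1, CDKC2 and CHX20, lie at about 2, with no library in between.

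Further genes with members are named in this paragraph only as examples. They belong to no list and were chosen after their values were seen. SPCH, which starts the stomatal lineage, had a summit 146 bp to the left and folds of 7.85, 9.15 and 10.6. ESR1, an AP2-type factor of shoot regeneration, had a summit 298 bp to the left and folds of 7.45, 6.72 and 8.54. MNP, a GATA factor of meristem and embryo patterning, had a summit 250 bp to the left and folds of 6.43, 6.91 and 8.10. Summits of other developmental genes lay to the right, at 297 bp for HRD, an AP2-type factor, with a mean fold of 9.48, at 73 bp for DPA4, a B3-type factor of the leaf margin, with 9.92, and at 300 bp for OFP9, of the ovate family, with 10.2. These 6 genes thus had summits on either side. The phosphate transporter gene PHT1;1, with a summit 88 bp to the right, had folds of 9.69, 9.54 and 9.85. PAL1, the entry enzyme of phenylpropanoid synthesis, had a summit 241 bp to the left and folds of 8.07, 8.22 and 10.2. Regions in the lower range, inside the gene, were found at LOB, a factor of organ boundaries, with folds of 2.74, 1.92 and 2.37, and at MYB83, a factor of secondary walls, with 2.16, 2.92 and 3.83.

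In all, 12 genes were nearest to more than 1 member. AT5G59110 had regions on either side, with the summit 179 bp to the left in one and 303 bp to the right in the other, and mean folds of 9.91 and 10.5. AT2G12190 had 1 region inside and 1 to the right with mean folds of 9.99 and 9.86. The 2 regions of AT3G30230 had 11.2 and 8.18, and those of AT3G17680 had 11.1 and 7.44. The regions of 1 gene were thus alike in some genes and apart in others.

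Peaks of GRF1 were not wholly absent from these regions. A peak of exactly 1 GRF1 library overlapped 23 of the 455 (5.05%), 5 from GRF1 replicate 1, 14 from replicate 2 and 4 from replicate 3, and the other 432 (94.9%) overlapped none. The overlap was found at 5 of 345 upper-range regions (1.45%) and 18 of 110 lower-range regions (16.4%). Regions overlapping a GRF1 consensus region had already been removed by the rule, so these shares cover only what was left. The same share over all GRF3 regions was not computed, and nothing was concluded from the contrast. A missing peak in a GRF1 list also does not show that GRF1 was absent. The 3 highest GRF1 folds, all from replicate 2, were 5.27 at AT2G22590, 3.82 at AT2G22807 and 2.77 at AT3G04443. At AT2G22590 the GRF3 folds were 2.57, 2.97 and 6.66, so that replicate 3 stood apart. A region inside PFT1, a Mediator subunit gene, chosen after its values were seen, had a like spread, with 2.12, 1.71 and 7.30.

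The members were set against the 118 genic GRF3 regions that also had peaks in all 3 libraries but overlapped a GRF1 consensus region. In the latter the median fold was 8.52, 6.88 and 10.3, so that the members were lower in replicates 1 and 3 and higher in replicate 2. The difference, members minus overlapping regions, was −0.91 ± 1.24 (SD, n = 3 libraries, exact sign-flip permutation test, two-sided, p = 0.5). The direction turned, to 0.41 ± 0.62 (SD, n = 3, same exact permutation test, p = 0.5), when regions touching a peak of any GRF1 library were removed from the members and added to the others. The median width of the members' peaks was 405, 408 and 430 bp against 350, 374.5 and 409.5 bp. The members were thus wider in 3 of 3 libraries, by 36.3 ± 17.4 bp (SD, n = 3, exact sign-flip permutation test, two-sided, p = 0.25). The edges of peaks also decided merging and overlap with GRF1 regions. Width was thus not independent of the choice of regions. Fold was likewise taken at the called peaks that chose the regions. Nothing was concluded from either test. With 3 libraries the exact test cannot go below p = 0.25, so neither difference could pass 0.05.

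Placement and shape were set side by side without a test. Of the 118 overlapping regions, 64 (54.2%) had the summit inside a gene and 13 (11.0%) had it 280 to 310 bp outside one, against 35.6% and 21.3% of the members. A mean fold of at least 5 was found at 87 of the 118 (73.7%), close to the members' 75.8%. Among their narrow upper-range regions, 51 had the summit nearer the left edge with a median of the mean folds of 10.9, and 13 nearer the right edge with 9.79, so the lower fold of left-leaning members was not seen there. The 514 GRF3-only genic regions found in 2 libraries were of another kind. Their median folds were 2.28, 2.21 and 2.42, 93.6% of their summits lay inside a gene, and 1 of 514 (0.195%) had a mean fold of at least 5. In fold and in placement they resembled the lower range of the members.

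**Figure D5:**
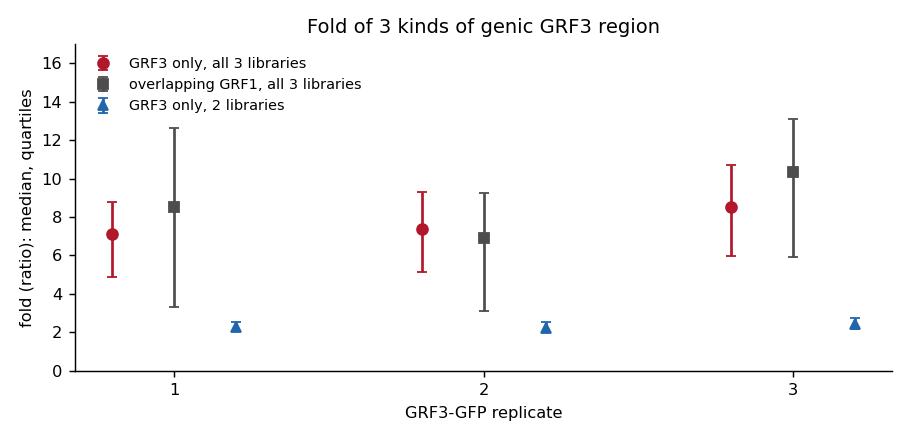
Median fold (markers) and quartiles (bars) on the y axis, as a ratio, in each GRF3-GFP replicate (x axis) for the 455 GRF3-only genic regions, the 118 genic regions overlapping a GRF1 consensus region, and the 514 GRF3-only genic regions found in 2 libraries. The quartile ranges of the first and second kinds overlap in every replicate, and the third lies near 2 throughout.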

How the data were processed

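The samples were chromatin immunoprecipitations with an anti-GFP antibody from whole plants. FastQC, Trimmomatic, Bowtie2 and MACS2, and TAIR10 as the build, are listed in the submitters' processing notes. Their versions, settings and roles were not given in the sources used here. Nor was the control of the peak caller. Each of 6 samples came with its own list, so peaks were called per library. The lists have no header; by the narrowPeak column order, the authors' deposited lists give for each peak a fold enrichment (a ratio), p-values and q-values as −log10, and a score. At every peak the score the authors deposited was 10 times the −log10 q-value, cut to a whole number. The lists hold no read counts, so depth is unknown and no interval was computed. The labels' protocols describe plants grown in randomized blocks with 3 replications but do not tie a library to a block, so p-values measure only the spread between libraries, which may be technical.

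Merging, placement and tests were run in Python 3.11.15 with pandas 2.3.3, NumPy 2.4.6 and SciPy 1.17.1. Merging, summits, overlaps and the sign-flip test were tried on simulated data, and the placement of summits against genes was not. Where a library had more than 1 peak in a region, the widest gave the summit. Names and distances came from gene spans of RefSeq (assembly TAIR10.1), a table that holds no strand, exons or UTRs. Printed coordinates are those of the lists, counted from 1. Named genes were nearest to the 12 highest, 6 widest and 6 lowest regions, the 6 closest to the 1 kb limit and 3 beyond it, up to 6 genes with 2 or more members, list genes, and the 3 highest GRF1 overlaps. Members and lists were chosen with earlier results of these data known. Alternatives were peaks with −log10 q from 5, peaks with fold from 4, reciprocal overlap of 50%, no peak of any GRF1 library, gene distances of 500 bp and 3 kb, the summit of the highest peak, and leaving out each library.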

Additional observations from a re-analysis of the deposited data

How the results depend on the processing

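The count of 455 regions stayed between 357 and 476 under every alternative that kept all libraries. Leaving out 1 library, it ran from 466 to 697, with 697 without GRF3 replicate 2. The mean of the median folds, 7.68, ran from 4.88 to 7.67 when 1 library was left out, with 4.88 without GRF3 replicate 2. The share of summits inside genes, 35.6%, was 34.7% with no peak of any GRF1 library, 36.2% within 500 bp and 34.5% within 3 kb. Leaving out 1 library, it ran from 36.1% to 57.4%, with 53.4% without GRF3 replicate 1 and 57.4% without replicate 2. The share 280 to 310 bp outside genes, 21.3%, was 22.5% with no peak of any GRF1 library and 20.7% within 3 kb. Leaving out 1 library, it ran from 13.5% to 21.0%, with 14.2% without GRF3 replicate 1. Peaks of 3 libraries with 1 shared start or end made up 2.42% of regions, and 0.560% at a fold of at least 4. Leaving out 1 library, they made up 2.36% to 11.4%, with 6.13%, 5.31% and 11.4% without GRF3 replicates 1, 2 and 3. Without a GRF3 library, a region needed a peak in both remaining lists only. The fold difference to overlapping regions, −0.91, reversed to 0.41 with no peak of any GRF1 library, and the cause was not tested. It was −2.23 at a fold of at least 4 and ran from −2.90 to −0.73 leaving out 1 library. The width difference of 36.3 bp stayed positive, from 18.0 to 138 bp, in all alternatives run for it. No paired analysis was possible because no test compared the transgene groups by their shared replicate numbers; the sign-flip tests pair kinds of region within a library, not libraries across groups. With no read counts, the lists cannot show how far depth sets which regions reach all 3 libraries.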

Other observations

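Neighbouring upper-range regions often came in pairs with mirrored shapes. Among upper-range members, 55 pairs of neighbours had summits at most 5 kb apart, a distance chosen after the data were seen. In 27 pairs the summit of the left region was nearer its right edge and that of the right region nearer its left edge, and their summits were 696 to 3413 bp apart, with a median of 2127 bp. The left region had the higher mean fold in 23 of these 27, and the medians were 9.62 and 7.42. Over all upper-range members the median of the mean folds was 9.75 with the summit nearer the right edge and 7.49 with it nearer the left. The direction in these pairs thus followed largely from how they were picked and is not a separate result. The opposite arrangement, with summits nearer the outer edges, was found in 3 pairs. In 16 pairs both summits were nearer the left edge, and in 9 both were nearer the right edge. The closest pair was at OFP9, with a mean fold of 10.2, and MEE51, with 7.55, their summits 696 bp apart. At NDP1 and AT5G02140 the values were 9.82 and 7.86 at 752 bp, and at SCD1 and AT1G49050 they were 9.69 and 6.97 at 966 bp. At HBI1 and AT2G18320, also mirrored and 965 bp apart, the order was the reverse, with 10.3 and 11.8.

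The upper-range folds were not spread evenly over the scale but recurred at set steps. In replicate 1, 222 of 345 upper-range folds (64.3%) were whole multiples of 0.102, within 0.02 of a step, against 2 of 110 lower-range folds (1.82%) and 18.4% of all peaks in the list. In replicate 2 the step was 0.0973, and 226 upper-range folds (65.5%), 9 lower-range folds (8.18%) and 18.0% of all peaks lay on it. In replicate 3 the step was 0.109, with 216 upper-range folds (62.6%), 3 lower-range folds (2.73%) and 15.4% of all peaks. Each step was fitted to the same upper-range folds so as to place the most of them, after the values were seen. The value 6.63 occurred 13 times among the upper-range folds of replicate 1, 7.69 occurred 11 times in replicate 2, and 8.43 occurred 12 times in replicate 3.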
